A study of Mus musculus with 16 samples.

Results

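Expression of 10 genes of the integrated stress response was followed in primary mouse alveolar type II cells kept in high or normal oxygen. The genes were Atf4, Atf5, Ddit3 (the gene of CHOP), Cebpb, Cebpg, Trib3, Ppp1r15a (the gene of GADD34), Nupr1, Eif4ebp1 and Stc2, which are 10 of the 34832 gene names on the array and 10 of the 25426 genes that were tested. A gene was found by its name on the array, and its brightest probe over all arrays was used. RNA was measured on 16 one-colour Agilent arrays, 4 in each of hyperoxia (85% O2) for 24 h, normoxia (21% O2) for 24 h, hyperoxia for 6 h and normoxia for 6 h. The cells came from C57BL/6 mice and were a primary culture of the epithelial cell that makes surfactant in the lung alveolus. The labels used here do not say whether the 4 samples of a group came from separate cultures or animals, so p-values measure only the spread between these samples.

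Cells under stress phosphorylate the initiation factor eIF2, which lowers protein synthesis in general while the transcription factor ATF4 is made in larger amounts. ATF4, often paired with a C/EBP protein, then raises genes for amino acid synthesis, uptake and tRNA charging, and the gene of CHOP. CHOP is linked to cell death under lasting stress, whereas TRIB3 holds ATF4 and CHOP in check and GADD34 directs the phosphatase that returns eIF2 to its unphosphorylated state. In the lung, type II cells secrete large amounts of surfactant protein and lipid, and high oxygen is a standard model of injury to them.

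RefSeq promoter windows (GRCm38.p6, 250 bases before to 50 bases after the transcript start) were found for 9 of the 10 genes, with 10 windows in all because Atf5 had 2. Each was searched on both strands for the C/EBP-ATF response element TGATGNAA, the cyclic AMP response element TGACGTCA and the endoplasmic reticulum stress element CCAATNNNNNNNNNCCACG. The first was in 2 of the 10 windows, Nupr1 and Trib3, and in 3.97% of all 32851 windows. In Trib3 the match read TTACATCA on the gene's strand and lay 15 to 22 bases after the start. The second was in 1 of the 10, Ppp1r15a, and in 1.79% of all windows, and the third in 0 of the 10 and in 0.119% of all windows. No other match to these letters was found in the 10 windows. The 250 bases before the start are shown for the 2 genes that hold a match there, with the match in capitals. Nupr1 lies at chr7:126625471-126625720 and Ppp1r15a at chr7:45526269-45526518, both on the minus strand, and each sequence reads 5′ to 3′ along its gene.
Nupr1: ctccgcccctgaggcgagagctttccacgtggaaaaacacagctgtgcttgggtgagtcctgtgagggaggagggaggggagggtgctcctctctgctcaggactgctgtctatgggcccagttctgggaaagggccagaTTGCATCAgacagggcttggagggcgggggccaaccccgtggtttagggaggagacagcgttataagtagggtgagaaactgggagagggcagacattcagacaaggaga
Ppp1r15a: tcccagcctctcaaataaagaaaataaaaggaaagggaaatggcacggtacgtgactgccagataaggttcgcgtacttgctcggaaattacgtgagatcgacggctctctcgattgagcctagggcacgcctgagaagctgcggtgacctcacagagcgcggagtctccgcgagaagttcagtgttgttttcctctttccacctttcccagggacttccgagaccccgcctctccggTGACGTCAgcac

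Values below are log2 signals less the 75th percentile of the same array, errors of log2 fold changes are SE, errors of means are SD, and n = 4 arrays per group throughout. Changes were called at an adjusted p under 0.05 from limma, with adjustment over all 25426 genes. All probes of the 10 genes were well above background on 16 of 16 arrays and none was saturated, so no value rests on a dim probe. Every 24 h array stood on 1 slide and every 6 h array on another, so the effect of time and that of the slide cannot be told apart. On both slides normoxia filled row 1 and hyperoxia row 2, so oxygen and slide row cannot be told apart either. Of the array's probes 53.7% to 69.0% were well above background. Before scaling, the arrays had a 75th percentile of 556 to 801 signal units at 24 h, against 899 to 1021 signal units at 6 h.

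Markers of type II cells and of other cells also moved with time. The summed level of 10 tested type II markers of 11 listed, in log2, was 4.88 to 5.21 in hyperoxia 24 h, 5.31 to 5.51 in normoxia 24 h, 5.85 to 6.36 in hyperoxia 6 h and 5.92 to 6.24 in normoxia 6 h. That of 6 fibroblast and smooth muscle markers was 10.46 to 10.59, 10.59 to 10.80, 9.72 to 10.11 and 9.81 to 10.04 in the same order of groups. Macrophage markers, 5 in number, summed to 6.05 to 6.20, 5.73 to 6.09, 4.57 to 5.10 and 4.60 to 4.83. The type II sum was lower, and both other sums were higher, on every 24 h array than on every 6 h array of either oxygen level, although 3 of the 5 macrophage markers fell and 1 rose at either oxygen level. At 24 h the type II and the fibroblast sums were both lower on every hyperoxia array than on every normoxia array. Single markers were less uniform, with 0 of the 6 fibroblast markers called at 24 h (median log2 fold change -0.11). Of the 10 type II markers 4 were called lower and 1 higher (median -0.18), where 12.8% of all genes were lower and 15.5% higher. The 1 tested club cell marker of 2 listed changed by -5.66 in normoxia and -5.02 in hyperoxia over time (log2). In bulk RNA, fewer cells of a type and less RNA per cell cannot be told apart, and the part of these shifts in the results below was not tested.

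The 4 groups fell in the same order for 7 of the 10 genes: Atf4, Atf5, Ddit3, Cebpg, Trib3, Eif4ebp1 and Stc2 were lowest in hyperoxia 6 h, next in normoxia 6 h, then in hyperoxia 24 h, and highest in normoxia 24 h. Ppp1r15a and Nupr1 kept this order at 24 h but had hyperoxia above normoxia at 6 h. Cebpb had hyperoxia above normoxia at both times. The step between the neighbours at 6 h passed the test for 0 of the 10. The 6 h arrays of Ppp1r15a and Cebpg still did not overlap, as for 4.31% of all genes. The step between the 6 h and the 24 h groups passed the test for 9 of 10, the exception being Trib3, whose mean was 4.43 ± 0.67 in hyperoxia 24 h and 4.31 ± 0.18 in normoxia 6 h (difference 0.12, adjusted p = 0.705). That pair of groups was the one compared in this step for 7 of the 10 genes, and 26.8% of all genes were higher in hyperoxia 24 h than in normoxia 6 h. The step between hyperoxia 24 h and normoxia 24 h passed for Atf4, Cebpg, Trib3, Eif4ebp1 and Stc2.

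**Figure D1:**
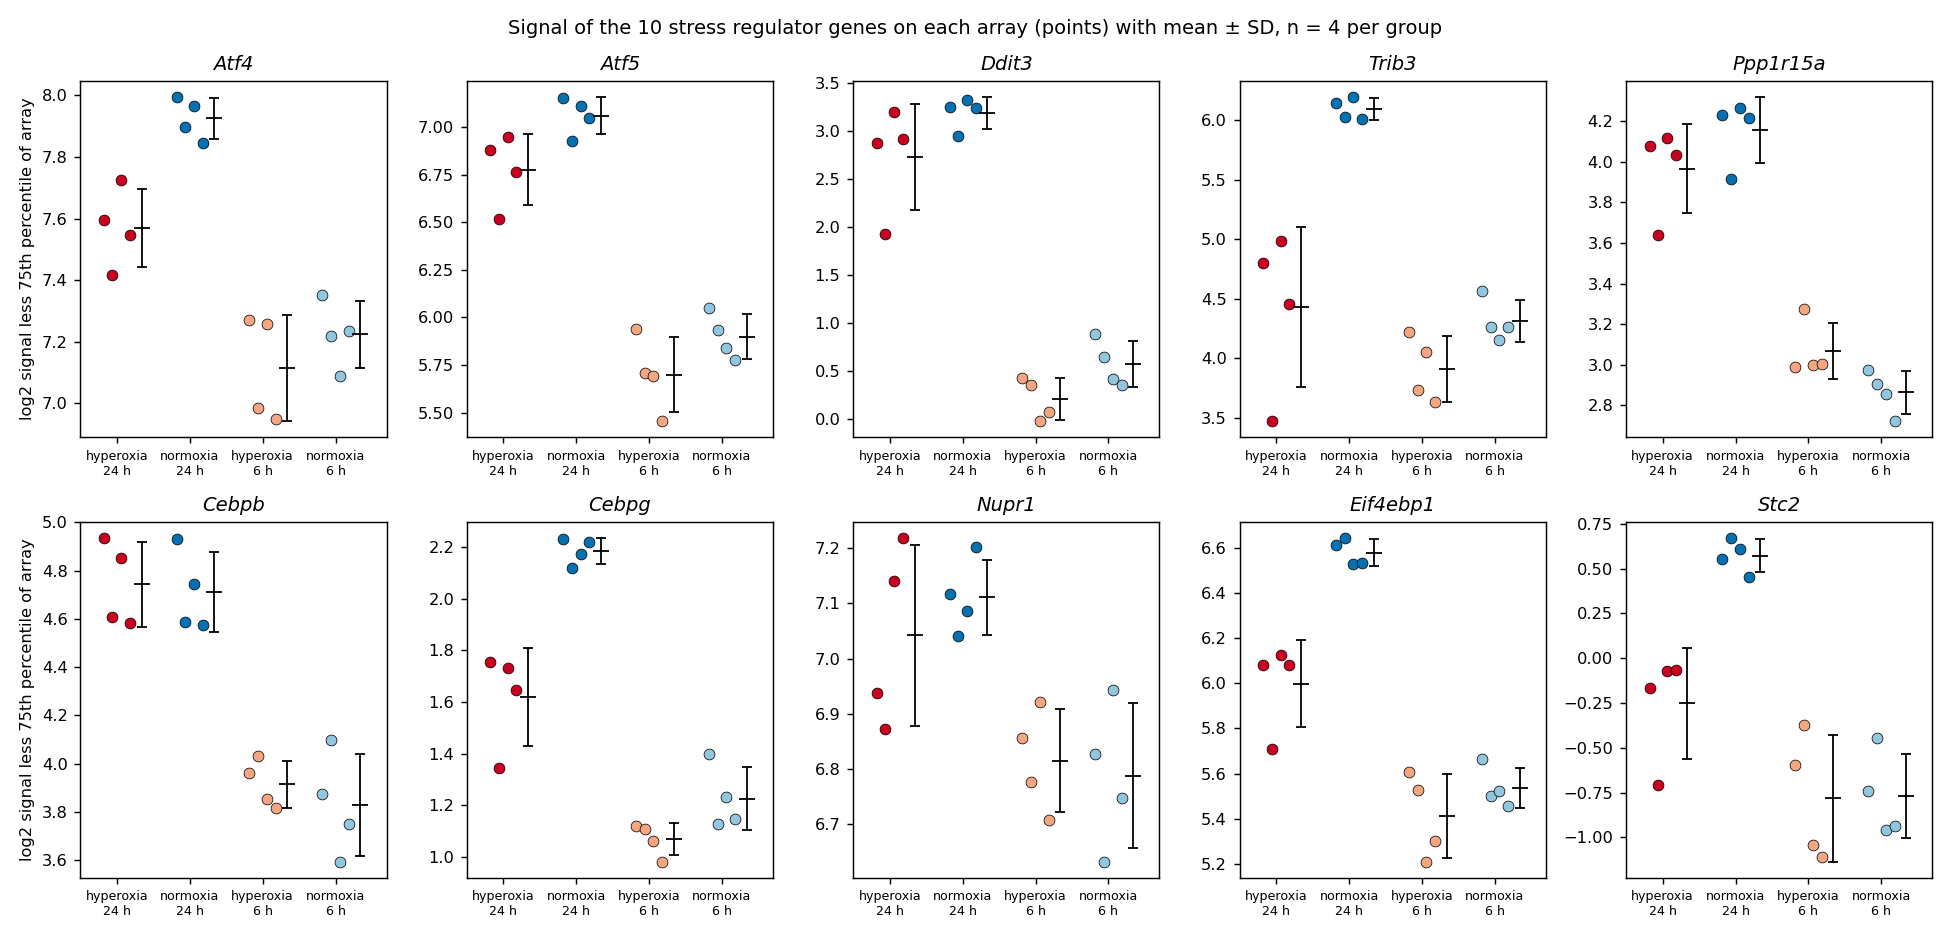
Log2 signal less the array's 75th percentile (vertical axis, scaled per gene) of the 10 genes on each of 16 arrays, with points for arrays, in groups hyperoxia 24 h, normoxia 24 h, hyperoxia 6 h and normoxia 6 h, and bars for mean ± SD (n = 4). The 24 h hyperoxia arrays of Trib3 lie between 3.48 and 4.98, below all normoxia arrays of that time, which lie between 6.01 and 6.19.

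After 24 h, 5 of the 10 genes were lower in hyperoxia and 0 were higher, where 12.8% of all genes tested were lower and 15.5% higher. The median log2 fold change of the 10 was -0.41, against 0.01 over all genes. Among the transcription factors of the response Atf4 and Cebpg fell, among its feedback genes Trib3 fell, and among its effectors Eif4ebp1 and Stc2 fell. The 5 that fell were also those whose hyperoxia and normoxia arrays did not overlap, which held for 33.2% of all genes.

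Trib3 encodes a pseudokinase that binds ATF4 and CHOP. Its signal at 24 h was 4.80, 3.48, 4.98 and 4.46 on the hyperoxia arrays, against 6.14, 6.03, 6.19 and 6.01 on the normoxia arrays. The highest hyperoxia array was lower than the lowest normoxia array by more than the whole range of the normoxia group. Trib3 was 3.17-fold lower in hyperoxia (log2 fold change -1.66 ± 0.25, adjusted p = 0.000142), the largest change among the 10. Without hyperoxia replicate 2, the array at 3.48, the log2 fold change was -1.35 (adjusted p = 2.63e-05).

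Stc2 encodes the secreted glycoprotein stanniocalcin 2. At 24 h it measured -0.17, -0.71, -0.07 and -0.07 in hyperoxia, against 0.55, 0.67, 0.61 and 0.45 in normoxia. All hyperoxia arrays lay below 0 and all normoxia arrays above 0, that is, on different sides of the arrays' 75th percentile. Stc2 was 1.77-fold lower (-0.82 ± 0.18, adjusted p = 0.00282).

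Eif4ebp1 encodes 4E-BP1, which binds the cap-binding protein eIF4E and represses translation. It measured 6.08, 5.71, 6.12 and 6.08 in hyperoxia 24 h, against 6.61, 6.64, 6.53 and 6.53 in normoxia 24 h. Normoxia arrays spread over 0.12 and hyperoxia arrays over 0.41, with replicate 2 the low one. The gene was 1.49-fold lower in hyperoxia (-0.58 ± 0.10, adjusted p = 0.000613).

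Cebpg encodes a short C/EBP protein that forms pairs with ATF4. Its values were 1.75, 1.34, 1.73 and 1.64 in hyperoxia 24 h, against 2.23, 2.12, 2.17 and 2.22 in normoxia 24 h. Hyperoxia arrays were all lower, and the gene was 1.48-fold lower (-0.57 ± 0.09, adjusted p = 0.000208).

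Atf4 itself changed least of the 5. It measured 7.59, 7.42, 7.72 and 7.55 in hyperoxia 24 h, against 7.99, 7.90, 7.96 and 7.84 in normoxia 24 h. The groups did not overlap, and Atf4 was 1.28-fold lower in hyperoxia (-0.35 ± 0.09, adjusted p = 0.0087). Its probe lies at chr15:80087902-80087961 (mm9, plus strand), and a second Atf4 probe lies upstream at chr15:80086639-80086698. On the second probe the mean was 2.87 ± 0.14 in hyperoxia 24 h and 3.21 ± 0.20 in normoxia 24 h, a log2 fold change of -0.35 ± 0.11 (adjusted p = 0.0233). Both probes of Atf4 thus fell by the same size within their errors. The arrays measure Atf4 RNA only, whereas the protein is set largely at translation.

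Ddit3, the gene of CHOP, did not pass at 24 h in the main fit, which held no block. It measured 2.87, 1.93, 3.19 and 2.92 in hyperoxia, against 3.24, 2.95, 3.32 and 3.23 in normoxia. Hyperoxia replicate 3 lay within the normoxia range and replicate 2 far below the rest, so the groups overlap. The log2 fold change was -0.46 ± 0.22, with a 95% confidence interval of -0.93 to 0.01 (adjusted p = 0.14). Same-numbered 24 h arrays deviated together over all genes, and with the replicate number as a block within each time Ddit3 fell (adjusted p = 0.0257). With the block over both times it did not pass (adjusted p = 0.136). Same-numbered arrays of different times, however, had r of only 0.00441 to 0.0837, under the limit of 0.1 set for pairing. Without hyperoxia replicate 2, and with no block, the log2 fold change was -0.19 (adjusted p = 0.404).

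Atf5 encodes a relative of ATF4 that acts in the mitochondrial unfolded protein response. It measured 6.88, 6.52, 6.94 and 6.76 in hyperoxia 24 h, against 7.15, 6.93, 7.11 and 7.05 in normoxia 24 h. Only hyperoxia replicate 3 reached into the normoxia range. The log2 fold change was -0.28 ± 0.11 (adjusted p = 0.07), and with the block within each time Atf5 fell (adjusted p = 0.0092), so that 7 of the 10 genes were lower. With that block 3762 of all 25426 genes were lower. Atf5 also passed with the block over both times (adjusted p = 0.0332), with normexp background correction and quantile normalization together (0.0176) and without hyperoxia replicate 3 (0.0499).

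The 3 others had intervals that reach across 0 in the main fit. Ppp1r15a measured 4.08, 3.64, 4.12 and 4.03 in hyperoxia 24 h, against 4.23, 3.92, 4.27 and 4.22 in normoxia 24 h. Each hyperoxia array was lower than the normoxia array of the same number. The log2 fold change was -0.19 (interval -0.43 to 0.05, adjusted p = 0.24). With the block within each time it did not pass either (adjusted p = 0.0645). Nupr1, the gene of a small stress-induced chromatin protein, had a log2 fold change of -0.07 (-0.26 to 0.12, adjusted p = 0.62). Cebpb, the gene of a C/EBP protein that pairs with ATF4 and CHOP, measured 4.94, 4.61, 4.85 and 4.58 in hyperoxia 24 h, against 4.93, 4.59, 4.75 and 4.58 in normoxia 24 h. Same-numbered arrays lay close together, and its log2 fold change was 0.03 (-0.22 to 0.28, adjusted p = 0.873).

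**Figure D2:**
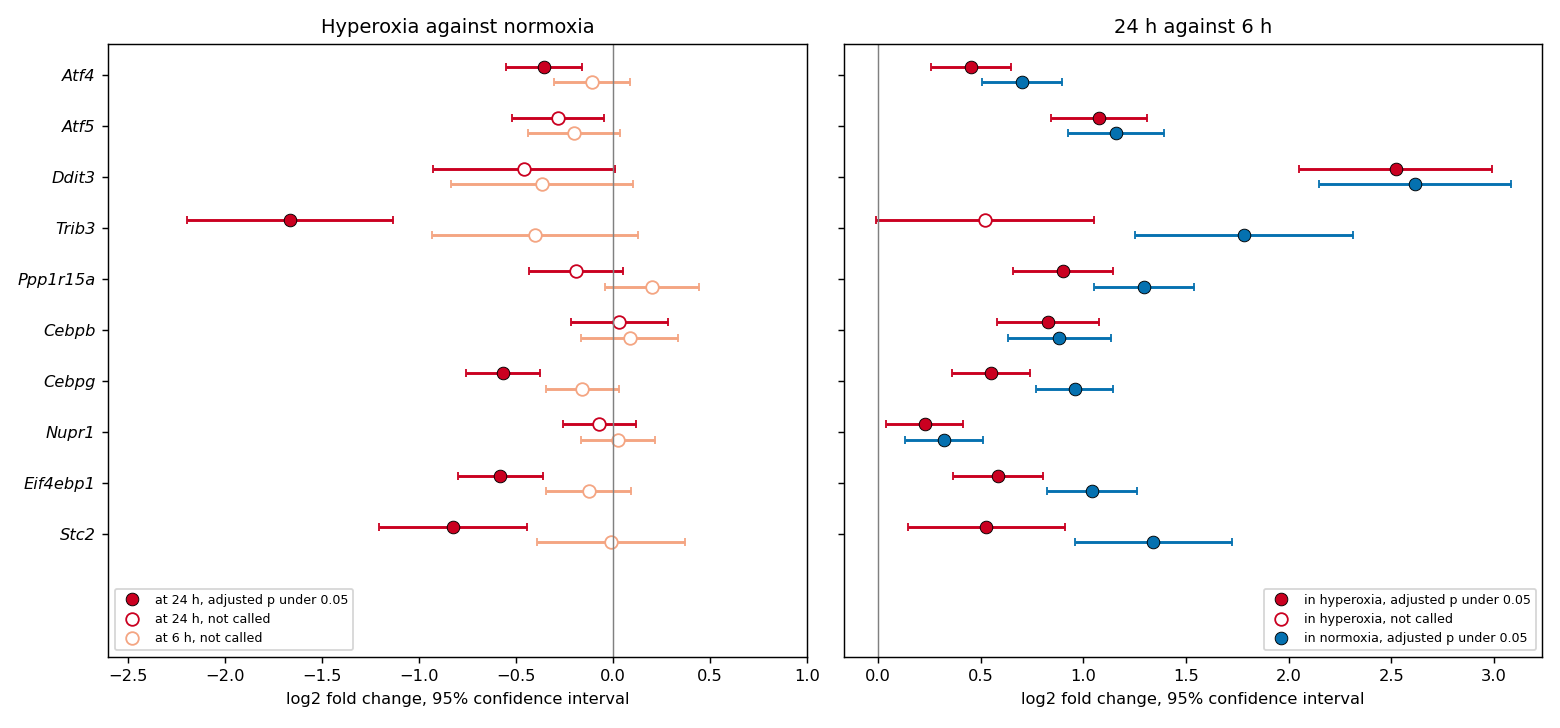
Log2 fold change with 95% confidence interval (horizontal axis) of the 10 genes, for hyperoxia against normoxia at 24 h and 6 h on the left and for 24 h against 6 h in hyperoxia and normoxia on the right, with filled points where the adjusted p was under 0.05. On the left 5 genes are filled at 24 h and 0 at 6 h, and on the right only Trib3 in hyperoxia is open.

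At 6 h, 0 of the 10 genes passed in either direction, where 0.326% of all genes did (60 higher and 23 lower, against 132 and 61 without hyperoxia 6 h replicate 3), and 0 had an unadjusted limma p under 0.05. Adjusted p ran between 0.774 and 0.999 and the median log2 fold change was -0.12, against 0.01 over all genes, with 7 of the 10 negative. Trib3 measured 4.23, 3.73, 4.05 and 3.63 in hyperoxia 6 h, against 4.56, 4.26, 4.16 and 4.27 in normoxia 6 h, and the groups overlap in hyperoxia replicate 1 alone. Its log2 fold change was -0.40 (interval -0.93 to 0.13), the most negative of the 10. Ddit3 measured 0.42, 0.36, -0.02 and 0.07 in hyperoxia 6 h, against 0.88, 0.64, 0.41 and 0.35 in normoxia 6 h, with overlapping arrays and a log2 fold change of -0.36 (-0.83 to 0.10). Ppp1r15a was the most positive, with 2.99, 3.27, 3.00 and 3.00 in hyperoxia 6 h, against 2.97, 2.91, 2.85 and 2.72 in normoxia 6 h and a log2 fold change of 0.20 (-0.04 to 0.44). Its groups and those of Cebpg did not overlap, which held for 4.31% of all genes. Atf4 measured 7.27, 6.99, 7.26 and 6.95 in hyperoxia 6 h, against 7.35, 7.22, 7.09 and 7.24 in normoxia 6 h, with a log2 fold change of -0.11 (-0.30 to 0.09).

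Between 6 h and 24 h the response genes were higher at the later time, most of all Ddit3. In normoxia 10 of the 10 genes rose, where 20.6% of all genes did, and 10 had no overlap between times, as 44.1% of all genes had. Ddit3 was 6.12-fold higher (2.61 ± 0.22), with a mean of 3.18 ± 0.16 at 24 h and 0.57 ± 0.24 at 6 h. Trib3 was 3.44-fold higher (1.78 ± 0.25), Stc2 2.53-fold (1.34 ± 0.18) and Ppp1r15a 2.45-fold (1.29 ± 0.11). Smaller rises were those of Atf5 (1.16 ± 0.11), Eif4ebp1 (1.04 ± 0.10), Cebpg (0.96 ± 0.09), Cebpb (0.88 ± 0.12) and Atf4 (0.70 ± 0.09). Under quantile normalization the Atf4 rise was 0.40 and still passed. The smallest was that of Nupr1 (0.32 ± 0.09, adjusted p = 0.00905), which was lost under quantile normalization (0.07, adjusted p = 0.507).

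In hyperoxia 9 of the 10 rose, where 25.0% of all genes did, and 7 had no overlap between times, as 45.3% of all genes had. Ddit3 again had the largest change, 5.74-fold (2.52 ± 0.22), with a mean of 2.73 ± 0.55 at 24 h and 0.21 ± 0.22 at 6 h. Atf5 rose by 1.08 ± 0.11, Ppp1r15a by 0.90 ± 0.11, Cebpb by 0.83 ± 0.12, Eif4ebp1 by 0.59 ± 0.10, Cebpg by 0.55 ± 0.09, Stc2 by 0.53 ± 0.18 and Atf4 by 0.45 ± 0.09. Under quantile normalization Atf4 rose by 0.25 (adjusted p = 0.0126), and with normexp and quantile normalization together Eif4ebp1 rose by 0.38 (adjusted p = 0.0112). On the second Atf4 probe the change was 0.25 ± 0.11, which did not pass (adjusted p = 0.0572). Trib3 did not pass, with 4.80, 3.48, 4.98 and 4.46 at 24 h, against 4.23, 3.73, 4.05 and 3.63 at 6 h, and a log2 fold change of 0.52 ± 0.25 (adjusted p = 0.0925). The array at 3.48 lay below every 6 h array, and without it Trib3 rose by 0.84 (adjusted p = 0.00064). Nupr1 rose by 0.23 ± 0.09 (adjusted p = 0.0429), a call that quantile normalization ended (0.03, adjusted p = 0.783) and that was also lost without hyperoxia 24 h replicate 3 or 4 or hyperoxia 6 h replicate 1, 2 or 4 (adjusted p = 0.0567 to 0.136). Stc2 (adjusted p = 0.0225) was lost without hyperoxia 24 h replicate 1, 3 or 4 or hyperoxia 6 h replicate 3 or 4 (adjusted p = 0.0531 to 0.0771).

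The hyperoxia effect was more negative at 24 h than at 6 h for Trib3, Cebpg and Stc2, 3 of the 10 genes, where 5.63% of all genes passed in that direction. That share rests on 1432 genes, which became 2265 without hyperoxia 6 h replicate 3 and 2606 with array weights. The difference between the effects, 24 h less 6 h, was -1.26 ± 0.35 for Trib3 (adjusted p = 0.0294), -0.81 ± 0.25 for Stc2 (adjusted p = 0.0487) and -0.41 ± 0.12 for Cebpg (adjusted p = 0.0459). It was -0.46 ± 0.15 for Eif4ebp1 (adjusted p = 0.0556), -0.39 ± 0.16 for Ppp1r15a (0.135) and -0.25 ± 0.13 for Atf4 (0.255). For Ddit3 the difference was -0.09 ± 0.31, with an interval of -0.75 to 0.57. With the block within each time Ppp1r15a passed as well (adjusted p = 0.0273). These calls lay close to the threshold: the number of genes that passed ran between 0 and 4 as each of 16 arrays was left out. The differences stayed negative, at -1.45 to -0.94 for Trib3, -0.92 to -0.66 for Stc2 and -0.47 to -0.32 for Cebpg. Of 8 alternatives with all arrays kept, 5 lost Stc2, 3 lost Cebpg and 0 lost Trib3. Trib3 was lost without hyperoxia 6 h replicate 1, normoxia 24 h replicate 1 or 3, or normoxia 6 h replicate 2, 3 or 4 (adjusted p = 0.0519 to 0.0603). Cebpg held only without hyperoxia 24 h replicate 1 or 3, hyperoxia 6 h replicate 3 or normoxia 6 h replicate 1, and was lost without any of the other 12 arrays (adjusted p = 0.0514 to 0.0944). Stc2 held only without hyperoxia 6 h replicate 3 or 4 or normoxia 6 h replicate 2, and was lost without any of the other 13 (adjusted p = 0.0516 to 0.0975). Eif4ebp1 passed without hyperoxia 6 h replicate 3 (adjusted p = 0.0193) or normoxia 6 h replicate 1 (0.0496).

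One array stood apart within its group. Hyperoxia 24 h replicate 2 was the lowest of its 4 arrays for 9 of the 10 genes, the exception being Cebpb, and lay below its group mean by a median of 0.28 (log2). Over all 25426 genes its median deviation was 0.0047 and its median absolute deviation 0.0885, within the range of the other arrays. Hyperoxia 24 h replicate 3 was the highest for 6 of the 10. In normoxia 24 h the deviations were smaller, with replicate 2 lowest for 5 genes. Of Trib3 and Ddit3 the 24 h hyperoxia arrays spread over 1.51 and 1.26, against 0.18 and 0.37 on the 24 h normoxia arrays. All 5 genes that fell at 24 h also passed without replicate 2.

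**Figure D3:**
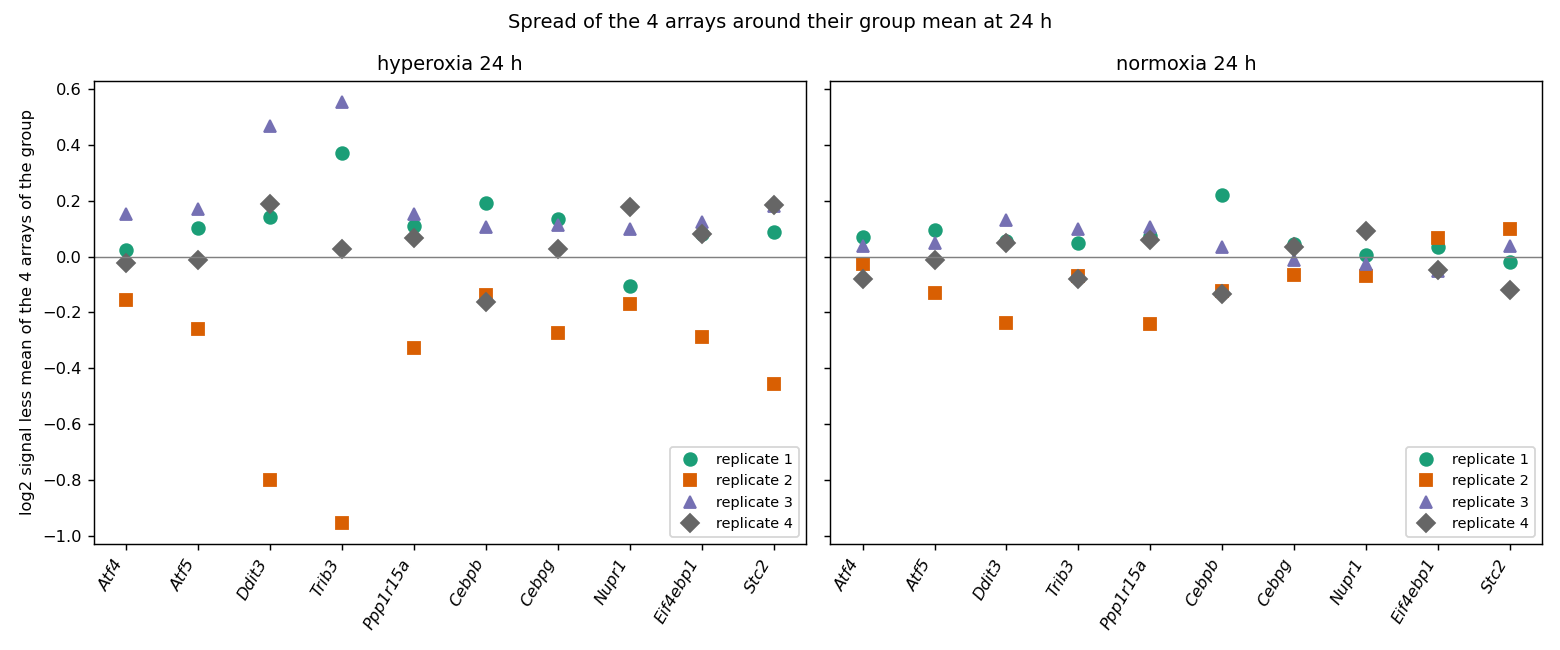
Deviation of each 24 h array from its group mean (vertical axis, log2) for the 10 genes (horizontal axis), hyperoxia left and normoxia right, with 1 symbol per replicate number. Hyperoxia replicate 2 is lowest for 9 of the 10 genes, by a median of 0.28 below the mean.

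Other genes of the pathway, 82 in 7 lists, were all tested. Known ATF4 targets in amino acid synthesis and related stress genes, 20 in number, had 16 lower and 2 higher in hyperoxia 24 h. Of all genes 12.8% were lower and 15.5% higher. The list's median log2 fold change was -1.10, against 0.01 over all genes. Fgf21, the gene of a hormone, fell most (-2.14 ± 0.20), with a mean of -0.02 ± 0.46 in hyperoxia 24 h and 2.12 ± 0.15 in normoxia 24 h. Pck2, the mitochondrial enzyme that makes phosphoenolpyruvate, fell by 1.77 ± 0.15, and Cth, which makes cysteine from cystathionine, fell by 1.58 ± 0.19. The 2 that rose were Gdf15 (1.52) and Sesn2 (0.31), both also known targets of p53 and named after their values were seen. A part of p53 in these rises was not tested. Gdf15 was the 1 gene of the list called at 6 h (1.22, adjusted p = 0.000746).

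Of 8 amino acid transporter genes 7 fell and 0 rose in hyperoxia 24 h (median -0.72), where 12.8% of all genes fell and 15.5% rose. Slc7a5 (-1.49 ± 0.13), Slc7a3 (-1.44 ± 0.23) and Slc6a9 (-1.13 ± 0.18) fell most. Slc38a2 alone did not pass (0.03). Of 10 tRNA synthetase genes and Xpot, the tRNA exporter, 11 of 11 fell (median -0.62), against the same 12.8% of all genes. Eprs (-0.86 ± 0.09), Wars (-0.86 ± 0.10) and Tars (-0.77 ± 0.09) fell most. In these 3 lists 0, 0 and 1 genes passed at 6 h for transporters, synthetases and ATF4 targets, where 0.326% of all genes did. Over time 9 of the 20 ATF4 targets rose and 2 fell in hyperoxia, and 19 rose and 1 fell in normoxia. The transporters rose in 5 of 8 and 8 of 8, and the synthetases in 6 of 11 and 11 of 11, with 0 falls in both lists. Of all genes 25.0% rose and 27.4% fell in hyperoxia, against 20.6% and 23.5% in normoxia. The hyperoxia effect was more negative at 24 h than at 6 h in 14 of 20, 3 of 8 and 10 of 11 genes, a call rate of 5.63% over all genes.

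Among 12 kinases and initiation factors upstream of ATF4, 1 was higher and 2 were lower in hyperoxia 24 h, near the shares over all genes (15.5% higher and 12.8% lower). Eif2ak2 (the kinase PKR) rose by 0.39 ± 0.10, while Eif2ak4 (GCN2) fell by 0.32 ± 0.10 and Eif2b1, an eIF2B subunit, by 0.19 ± 0.07, with a list median of -0.08. Eif2b1 was close to the threshold (adjusted p = 0.0487), and without hyperoxia 24 h replicate 2 the list had 1 gene lower. Eif2ak3, the gene of PERK, had a value of 0.31 (adjusted p = 0.063).

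The ATF6 and XBP1 arms of the unfolded protein response, chaperones included, had 14 of 16 genes lower and 0 higher in hyperoxia 24 h (median -0.71). Of all genes 12.8% were lower and 15.5% higher. Herpud1, a factor of protein degradation at the endoplasmic reticulum, fell by 1.10 ± 0.14, the chaperone gene Hyou1 by 1.02 ± 0.20 and Sdf2l1 by 0.94 ± 0.10. Over time, 1 of the 16 rose and 11 fell in hyperoxia, and 5 rose and 3 fell in normoxia. Of all genes 25.0% rose and 27.4% fell in hyperoxia, and 20.6% rose and 23.5% fell in normoxia.

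Of 5 genes linked to CHOP, 3 rose and 0 fell in hyperoxia 24 h, where 15.5% of all genes rose and 12.8% fell. Those that rose were Tnfrsf10b (a death receptor, 1.15 ± 0.10), Bcl2l11 (the gene of BIM, 0.66 ± 0.09) and Bbc3 (the gene of PUMA, 0.62 ± 0.12). Ddit3 itself was not higher in hyperoxia 24 h (-0.46, adjusted p = 0.14), and a part of CHOP in these rises was not tested. Tnfrsf10b also rose at 6 h (0.69 ± 0.10, adjusted p = 0.00658), with a mean of 3.25 ± 0.23 in hyperoxia and 2.56 ± 0.16 in normoxia. Bbc3 and Tnfrsf10b are also known targets of p53, and a part of p53 in their rises was not tested. Ero1a, an oxidase of the endoplasmic reticulum, had a value of -0.31 (adjusted p = 0.097), and Bcl2 did not pass either.

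Close relatives of the 10 genes, also 10 in number, had 1 higher and 2 lower in hyperoxia 24 h (median -0.04), where 15.5% of all genes were higher and 12.8% lower. Stc1, the paralogue of Stc2, rose by 1.77 ± 0.40, with a mean of -3.04 ± 0.67 in hyperoxia and -4.81 ± 0.92 in normoxia, on a probe well above background on 14 of 16 arrays. Cebpd fell by 0.55 ± 0.12 and Ppp1r15b, the constitutive relative of Ppp1r15a, by 0.35 ± 0.08.

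**Figure D4:**
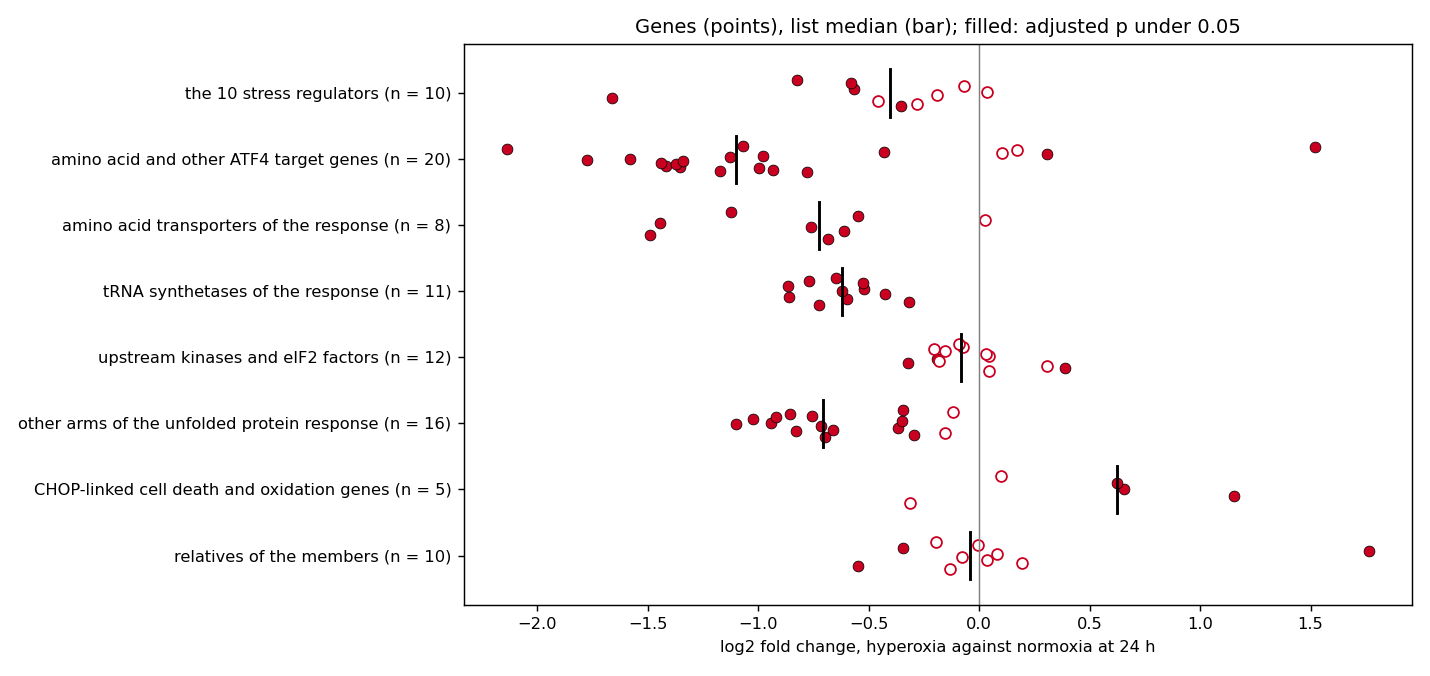
Log2 fold change in hyperoxia against normoxia at 24 h (horizontal axis) of the 10 genes and of 7 lists of other pathway genes, with 1 point per gene, filled where the adjusted p was under 0.05, and a bar at the list median. The ATF4 target list has the lowest median, -1.10, and the CHOP-linked list the highest, 0.62.

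Profiles were compared by the root mean square difference in log2 over the 16 arrays, each gene taken less its own mean, among 4513 tested genes with a range of group means of at least 1. Atf4 itself had a range of 0.81, from hyperoxia 6 h to normoxia 24 h, so genes that moved as little as Atf4 were not candidates. Among the candidates the profile nearest to Atf4 was that of Got1, the cytosolic aspartate aminotransferase (0.105). It was followed by Snhg12 (0.130), Dhrs7 (0.138) and Xpot (0.157). Nearest to Trib3 were Cth (0.176), Aldh1l2, a mitochondrial one-carbon enzyme (0.264), Kif21b (0.266) and Pla2g2e (0.281). Cth had means of 2.34 in hyperoxia 24 h, 3.92 in normoxia 24 h, 1.77 in hyperoxia 6 h and 2.00 in normoxia 6 h, the same order of groups as Trib3. The genes nearest to Ddit3 lay farther off, with Klf15 (0.263), Adra2a (0.293), Nrip2 (0.348) and Tfr2 (0.386). The measure is not scaled for the size of a gene's changes, and Ddit3 had a range of group means of 2.98. Klf15 and Nrip2 were low at 6 h, with means of -4.90 and -6.14 in hyperoxia and -4.27 and -5.82 in normoxia. A gene was tested if 3 of 4 arrays in any group had it well above background. Their 6 h values may thus lie near background, and the size of their changes over time is uncertain. Klf15 was 2.61 higher at 24 h than at 6 h in hyperoxia and 2.48 higher in normoxia (log2), with a hyperoxia effect at 24 h of -0.49 that did not pass (adjusted p = 0.274). The points of such a comparison share slides by time, and the measure is a description with no test.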

How the data were processed

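RNA was measured on 16 one-colour Agilent arrays (4 groups of 4). Per the file headers and the submitters' processing notes, Agilent Feature Extraction 10.7.3.1 made the deposited files, with a processed signal (an intensity) from which background was subtracted and spatial trends were removed on each array alone. The authors also deposited a log2 table of 43964 probes (median 7.19 on every array, correlation with the processed signal 0.997 to 1.00), whose normalization is not given in the sources used here. It served as an alternative only.

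Signals were averaged over spots of a probe (55681 probes), taken as log2 and set to 0 at each array's 75th percentile. A gene was its brightest probe, tested if 3 of 4 arrays in any group had it well above background, which left 25426 genes. Groups were compared with limma 3.58.1 in R 4.3.3 (a mean for each group fitted on 16 arrays, residual degrees of freedom 12, prior degrees of freedom 2.23, contrasts, eBayes, two-sided, Benjamini-Hochberg over all genes of a contrast, threshold 0.05), tested on simulated data. The number of arrays limits the precision.

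The 10 genes, the lists of pathway and marker genes and the tests were chosen with earlier results of these data known. All 10 genes are named. Of each pathway list the 3 called genes with the largest change in hyperoxia 24 h are named. For Atf4, Ddit3 and Trib3 the 4 genes with the nearest profile are named, among genes with a range of group means of at least 1. Others were named after their values were seen. Of the 25426 genes, 15965 carry a symbol matched through the array's RefSeq accession. Probe positions are those of the array annotation (mm9), and promoters are RefSeq's (GRCm38.p6, names and sequence only).

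Residuals of same-numbered arrays of both oxygen levels correlated at 24 h with r of 0.246, 0.344, 0.244 and 0.261, each over the pairing limit of 0.1, and at 6 h with r of 0.251, 0.254, 0.354 and 0.0865, so the numbers, which are the slide columns, were taken to pair the arrays at 24 h. The main fit held no block, so calls given without mention of a block do not use this pairing. Alternatives were normexp background correction with quantile normalization, quantile normalization alone, the authors' table, no filter, the mean over probes, array weights, the compared groups alone, the replicate number as a block, and leaving out each array.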

Additional observations from a re-analysis of the deposited data

Results flagged for a closer look

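Within groups of 4, single arrays lay far from the other 3 in 4 of 40 groups of values, and chance alone gives about 1 in 20. Hyperoxia 24 h replicate 2 was far below the rest for Eif4ebp1, at 5.7105, and for Stc2, at -0.708. For Ppp1r15a, hyperoxia 6 h replicate 2 was far above the rest, at 3.2717, and normoxia 24 h replicate 2 far below, at 3.9175.

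The limma test of the difference between the effects, 24 h less 6 h, passed for Trib3, Stc2 and Cebpg. The differences in log2 fold change were -1.2623 (adjusted p = 0.0294), -0.8135 (0.0487) and -0.4083 (0.0459). At 24 h each gene had 4 of 4 hyperoxia arrays below every normoxia array, and 33.2% of all genes had no overlap. The arrays of Cebpg did not overlap at 6 h either, as for 4.31% of all genes. Its separation at 24 h thus does not show a change with time.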

How the results depend on the processing

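The counts of genes called in each direction stayed within 1.5 times their value under every alternative run for hyperoxia against normoxia at 24 h (5 to 7 lower) and at 6 h (0), and for 24 h against 6 h at both oxygen levels. Only the 3 genes called lower in the difference between the effects moved, to 1 under quantile normalization, 1 with the authors' table and 1 without the filter on dim probes, and to between 0 and 4 as each array was left out. Of 900 values of single genes under an alternative, 829 stayed on their side of the threshold with no called direction turned, 57 lost the call and 13 gained it. The 1 reversal was Nupr1 over time in hyperoxia, -0.0675 (adjusted p = 0.481) with normexp and quantile normalization, and the cause was not tested. All 5 falls at 24 h were called under every alternative. The replicate block over both times gave Atf5 a call at 24 h (adjusted p = 0.0332) and ended that of Stc2 in the difference (0.0668), and beside the calls given above the block within each time changed no other call of the 10 genes. Over all genes at 6 h, 60 were higher and 23 lower, against 303 and 263 with array weights, 21 and 8 with the compared groups alone, and 46 and 16 without the filter, and the 23 became 37 under quantile normalization or with the authors' table and 47 with normexp and quantile normalization. As each 6 h array was left out they ran between 33 and 132 higher and between 11 and 61 lower, with the highest counts without hyperoxia replicate 3 and the lowest without normoxia replicate 4. Over all genes in the difference, 1686 were higher and 1432 lower, against 3141 and 2606 with array weights, and 2711 and 2265 without hyperoxia 6 h replicate 3. Chosen after the data were seen, counts of the pathway lists without hyperoxia 24 h replicate 2 or with the block changed by at most 2 genes.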
